A study of Mus musculus with 18 samples.

Results

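The comparison described here is that of PANDORA-seq with traditional-seq in livers of mice on a high cholesterol diet (HCD), and its members were the 8 libraries labelled with that diet, of 18 in the series. They came from 4 C57BL/6 mice, numbered 15 to 18, each of which gave 1 library by either method, and all 1234 RNAs of the deposited table were considered, by class and singly. The mice were males and 8 weeks old when the diet began, according to the labels. The labels and the study's text give the feeding time as 4, 8 or 9 weeks in different places, so it is not settled here. All animals of the series that were not on the HCD received a low cholesterol diet (LCD) and enter only the last comparison of the report.

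Liver RNA of 15 to 50 nucleotides was cut from a gel for both methods. For PANDORA-seq it was treated with T4PNK, a kinase that repairs fragment ends to which adapters cannot be joined, and then with AlkB, a demethylase that removes methyl groups at which reverse transcription stops. For traditional-seq a part of the same RNA went into the library untreated, so libraries with the same number came from the same mouse. A difference between the methods is thus a difference in what each library captured from 1 liver, and not a difference between livers. After each enzyme the RNA was isolated again with TRIzol, a step that the study does not describe for the untreated part. AlkB, T4PNK and these isolations always went together, and their parts in a difference cannot be told apart.

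Small RNAs in liver fall into several families. A microRNA (miRNA) is cut by Dicer from a hairpin precursor, carries a 5′ phosphate and a 3′ hydroxyl, and finds its targets through the seed, bases 2 to 8 of its mature strand. Fragments of tRNA (tsRNAs), ribosomal RNA (rsRNAs) and Y RNA (ysRNAs) are left by other nucleases, whose cuts can leave a 3′ phosphate or cyclic phosphate, and tRNAs are dense in modified bases. Angiogenin, the best known of these nucleases, cuts tRNA in the anticodon loop.

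The sequences of the RNAs on which the results turn are shown first. Those of the miRNAs are mature strands of RefSeq (GRCm38.p6), with the seed in capitals. The first group comes from precursors that fell most between traditional-seq and PANDORA-seq, and miR-26a-5p and miR-26b-5p in it share a seed.
mmu-miR-26a-5p: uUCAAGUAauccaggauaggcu
mmu-miR-26b-5p: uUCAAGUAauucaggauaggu
mmu-miR-126a-3p: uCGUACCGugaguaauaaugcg
mmu-miR-194-5p: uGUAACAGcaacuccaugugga
mmu-miR-203-3p: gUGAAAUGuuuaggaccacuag
mmu-miR-340-5p: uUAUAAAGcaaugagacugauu
mmu-miR-21a-5p: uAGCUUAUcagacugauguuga
The next group shares the let-7 seed, and its members fell by different amounts.
mmu-let-7g-5p: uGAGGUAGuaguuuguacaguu
mmu-let-7a-5p: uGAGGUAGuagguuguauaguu
mmu-let-7c-5p: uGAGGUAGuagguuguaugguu
mmu-let-7b-5p: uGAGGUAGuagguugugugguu
The last group holds miR-148a-3p, from a precursor among the 2 highest by both methods, and strands of entries that were higher in PANDORA-seq.
mmu-miR-148a-3p: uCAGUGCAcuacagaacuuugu
mmu-miR-690: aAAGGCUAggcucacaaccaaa
mmu-miR-692: aUCUCUUUgagcgccucacuc
mmu-miR-2137: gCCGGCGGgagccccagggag

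For tRNA fragments the table gives 1 value per anticodon, in which 5′ and 3′ pieces are summed. A 5′ and a 3′ piece of tsRNA-Glu-CTC, the family with the most reads, are shown as the study's own list of species gives them. The capitals mark the 15 letters in which 44 of the 73 species in that list end, and they reach into the anticodon loop. Mitochondrial tRNAs that were higher (mt-Thr-TGT, mt-Gly-TCC) or lower (mt-Trp-TCA, mt-Ser-GCT) in PANDORA-seq are given from GENCODE M21 (GRCm38), with the anticodon in capitals where its letters, after a T, were found at 1 place in the middle of the sequence.
tsRNA-Glu-CTC 5′ piece: tggtctagtggttAGGATTCGGCGCTCT
tsRNA-Glu-CTC 3′ piece: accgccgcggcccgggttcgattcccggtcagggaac
mt-Thr-TGT: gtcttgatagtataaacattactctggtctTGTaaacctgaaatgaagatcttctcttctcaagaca
mt-Gly-TCC: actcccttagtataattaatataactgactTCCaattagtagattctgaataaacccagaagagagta
mt-Trp-TCA: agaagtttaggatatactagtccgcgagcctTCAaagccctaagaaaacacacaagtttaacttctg
mt-Ser-GCT: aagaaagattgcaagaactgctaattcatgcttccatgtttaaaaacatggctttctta

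Values are RPM, the reads of an RNA scaled to a common library total, as deposited. The read totals are not in the table and were inferred from the RPM that 1 read is worth, at 2804624 to 10477677 reads for PANDORA-seq and 7567273 to 25488097 for traditional-seq. The share of reads outside the listed RNAs was 15.9% ± 2.27 in PANDORA-seq libraries and 6.37% ± 1.90 in traditional-seq libraries (SD, n = 4 each). The hepatocyte miRNAs miR-122, miR-192, miR-194 and miR-148a summed to between 454600 and 634720 RPM in traditional-seq and to between 53158 and 125853 RPM in PANDORA-seq, while the neuronal miR-124 and miR-9 summed to at most 1.72 RPM. Both libraries of a mouse came from the same liver RNA, so the cells behind them were the same for both methods. Between livers, fewer cells of a type and less RNA per cell cannot be told apart in such bulk RNA.

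By class, miRNAs lost and fragments of rRNA and tRNA gained in PANDORA-seq. Of the annotated reads, miRNAs took 82.0%, 62.1%, 76.3% and 62.0% in traditional-seq of mice 15, 16, 17 and 18, and 7.56%, 9.93%, 15.8% and 7.56% in PANDORA-seq. The means were 70.6% ± 10.2 and 10.2% ± 3.87 (SD, n = 4 each), a 6.92-fold lower share in PANDORA-seq. rsRNAs took 13.97%, 31.04%, 21.3% and 32.9% in traditional-seq and 69.1%, 72.8%, 67.8% and 70.03% in PANDORA-seq. Their share was thus nearly the same in the 4 PANDORA-seq libraries, with a mean of 69.95% ± 2.12, against 24.8% ± 8.83 in traditional-seq.

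Cytosolic tsRNAs had the largest relative gain of any class, 9.20-fold. They took 1.34%, 2.33%, 0.647% and 2.03% of annotated reads in traditional-seq and 18.2%, 11.9%, 11.9% and 16.4% in PANDORA-seq. The piRNA entry took 2.65% ± 0.996 in traditional-seq and 4.79% ± 0.498 in PANDORA-seq. These 4 classes did not overlap between the methods, and each gave p = 0.0286 in two-sided exact permutation tests, the smallest p that 4 against 4 libraries allow (adjusted p = 0.0429 over 6 classes). Tested as 4 pairs by sign flips, the exact p was 0.125 (adjusted p = 0.15), the lowest value open to 4 pairs, so that no class could pass this way. As a share of all reads the adjusted p was 0.0571 for miRNAs, cytosolic tsRNAs and rsRNAs and 0.0857 for the piRNA entry.

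Mitochondrial tsRNAs and ysRNAs did not pass. Mitochondrial tsRNAs took 0.354% ± 0.181 in traditional-seq and 0.456% ± 0.153 in PANDORA-seq (adjusted p = 0.371 by the exact permutation test), with mouse 16 lower and the other mice higher. ysRNAs took 0.00455% ± 0.00394 and 0.00916% ± 0.00553 and were higher in PANDORA-seq in 4 of 4 mice (exact permutation test, adjusted p = 0.24). Set against the miRNA reads of the same library, both classes were higher in PANDORA-seq without overlap, by 3.30 and 4.02 on the log2 scale (exact permutation test, adjusted p = 0.0286).

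**Figure D1:**
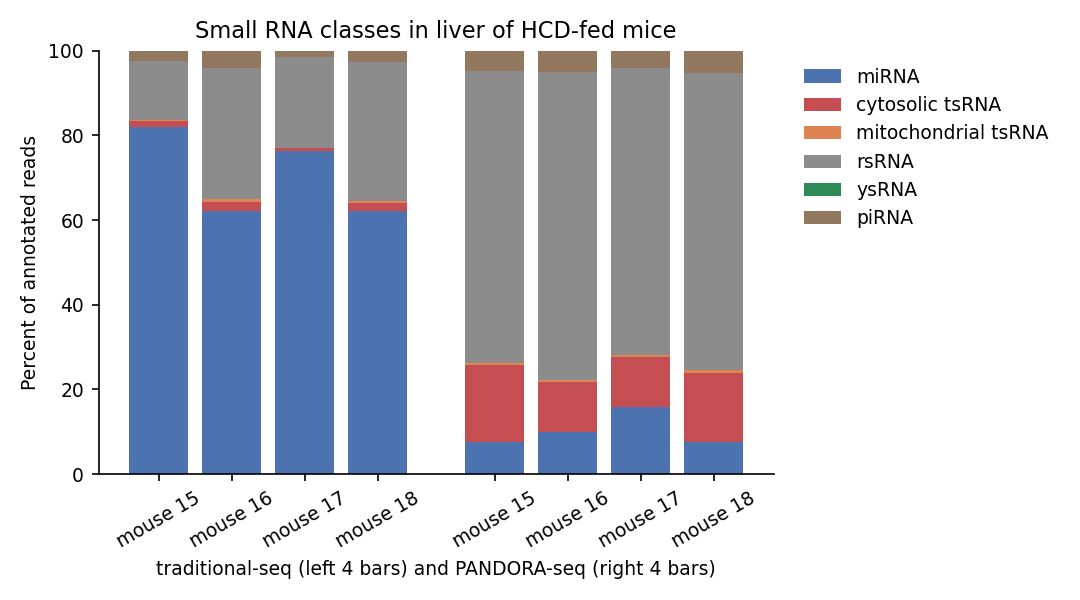
Percent of annotated reads in each RNA class (stacked bars) for the traditional-seq (left) and PANDORA-seq (right) library of each HCD-fed mouse. miRNAs fill 62.0% to 82.0% of the traditional-seq bars and 7.56% to 15.8% of the PANDORA-seq bars, where rsRNAs take 67.8% to 72.8%.

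Counted per miRNA read, traditional-seq held 0.0164, 0.0375, 0.00848 and 0.0327 cytosolic tsRNA reads in mice 15 to 18, and PANDORA-seq 2.40, 1.20, 0.756 and 2.16. In mouse 17 the tsRNA reads of PANDORA-seq therefore stayed below its miRNA reads, while in the other mice they exceeded them. The ratio of rsRNA to miRNA reads rose from between 0.17 and 0.53 to between 4.30 and 9.26. On the log2 scale the difference between the methods was 6.18 for cytosolic tsRNAs and 4.42 for rsRNAs (exact permutation test, adjusted p = 0.0286).

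Each RNA on its own was tested with limma on log2(RPM + 1), a scale on which changes of rare RNAs come out too small, for the 312 RNAs that reached 1 RPM in 4 or more of the 8 libraries, with Benjamini-Hochberg adjustment. Of these, 57 were higher (18.3%) and 192 lower (61.5%) in PANDORA-seq at an adjusted p below 0.05, and the median change was −1.84. RPM is a relative measure, so that more reads of 1 class leave fewer for another. The median of all tested RNAs moved from −1.84 to −1.35 with TMM scaling and to 0.37 with scaling by the miRNA reads, and with those 2 scalings 73 and 119 RNAs were higher and 170 and 78 lower. Relative to the median of all tested RNAs, the median cytosolic tsRNA family lay 4.59 higher, the median rRNA 3.14 higher and the median miRNA at −0.81.

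The classes separated widely. Of 51 cytosolic tsRNA families 39 were higher in PANDORA-seq and none lower, with a median change of 2.75. Of 229 tested miRNAs 190 were lower and 5 higher, with a median of −2.65. The same 39 families, 64 of the miRNAs that were lower and all 5 miRNAs that were higher kept their call under each of 5 scalings, which were RPM, TMM, miRNA reads, annotated reads and median centring. At 1 RPM or more in all 4 libraries, 215 miRNAs were found in traditional-seq and 115 in PANDORA-seq, against 49 and 51 tsRNA families. The filter could thus admit a miRNA through traditional-seq alone, such as mir-802, with means of 5.64 RPM there and 0 RPM in PANDORA-seq. The share and median of lower miRNAs depend on this filter. Without it 220 of 1010 miRNAs were lower and 5 higher, with a median of −0.06.

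**Figure D2:**
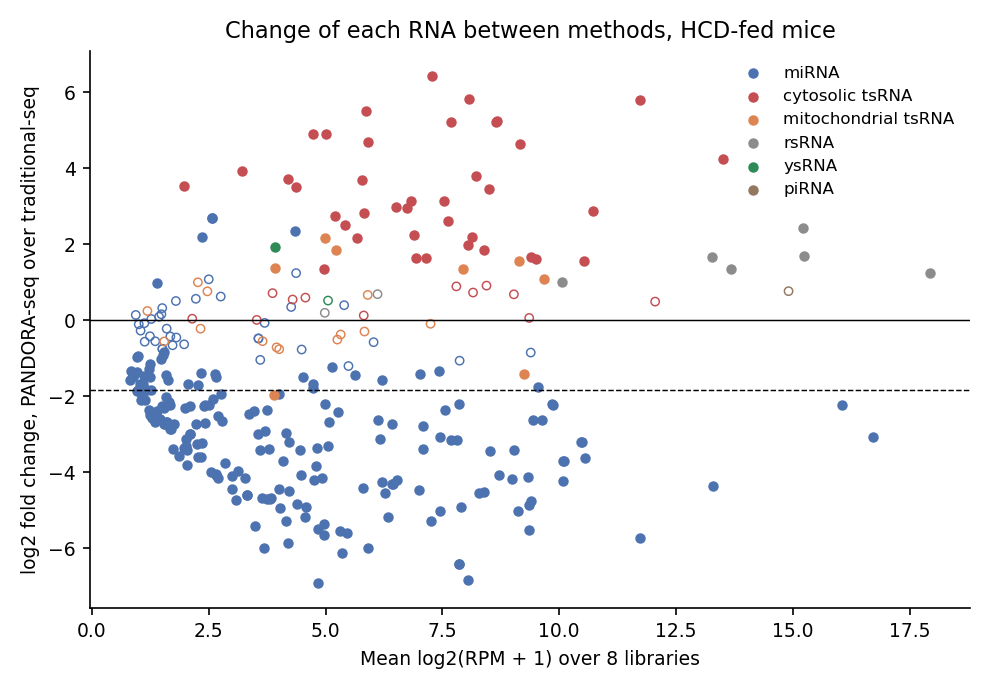
log2 change of each of 312 RNAs between the methods (y axis) against its mean log2(RPM + 1) over the 8 libraries (x axis), coloured by class. Filled points passed the limma test and open points did not, and the dashed line marks the median change of −1.84, below which most miRNAs but no cytosolic tsRNA family lie.

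Among cytosolic tsRNAs, tsRNA-Glu-CTC led PANDORA-seq in 4 of 4 mice. It had 2955, 4652, 1205 and 3064 RPM in traditional-seq of mice 15 to 18, and 76003, 40242, 50234 and 44280 RPM in PANDORA-seq. The groups lay far apart, with a log2 change of 4.26 (standard error 0.45, limma adjusted p = 4.88e-10). Its share of the cytosolic tsRNA reads was 16.4% to 23.3% in traditional-seq and 33.4% to 49.9% in PANDORA-seq. RefSeq (GRCm38.p6) lists 12 genes for this tRNA on 8 chromosomes, and the table does not say which of them gave the reads. The sister family Glu-TTC, which reads the other glutamate codon, was higher too, with a log2 change of 2.88 (limma adjusted p = 1.49e-06).

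The second place was taken by tsRNA-His-GTG. This tRNA receives an extra guanosine at its 5′ end after transcription and carries queuosine in its anticodon. It had 495, 744, 217 and 539 RPM in traditional-seq and 27845, 30245, 27140 and 18593 RPM in PANDORA-seq. Its level was 52.1-fold higher by mean RPM, with a log2 change of 5.81 (standard error 0.45, limma adjusted p = 1.79e-12). It took 3.44% ± 0.417 of the cytosolic tsRNA reads in traditional-seq and 22.1% ± 7.22 in PANDORA-seq, which is place 7 and place 2 by mean share.

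The order of traditional-seq looked different. Gly-GCC, whose 5′ fragment is a classical product of angiogenin, held the first place there with 28.7% ± 11.3 of the cytosolic tsRNA reads, and held 4.27% ± 1.06 in PANDORA-seq. By level it had 4587, 8523, 1438 and 2924 RPM in traditional-seq and 8844, 4221, 3725 and 4652 RPM in PANDORA-seq. These groups overlapped, and mouse 16 was lower in PANDORA-seq while the other 3 mice were higher (log2 change 0.49, standard error 0.49, limma adjusted p = 0.354). Gly-CCC gave 0.69 (adjusted p = 0.221) and Tyr-GTA 0.06 (adjusted p = 0.915). Across all 51 families the mean log2 levels of the methods had a Pearson r of 0.77 and a Spearman rho of 0.77, given as a description, since the families share their libraries.

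Of the other families with large changes, several had low levels in traditional-seq. Ser-GCT, a serine tRNA with a long variable arm, had 9.70, 20.7, 8.11 and 36.4 RPM in traditional-seq and 1496, 785, 856 and 4312 RPM in PANDORA-seq (log2 change 6.43, standard error 0.57, limma adjusted p = 1.57e-11). Mouse 18 was highest by either method. Arg-ACG had 22.3, 61.9, 19.6 and 53.1 RPM and then 1573, 1451, 1929 and 3759 RPM, a log2 change of 5.82. Arg-CCG changed by 5.51, Thr-CGT by 4.91, Arg-TCT by 4.89, Phe-GAA by 4.70 and Asp-GTC by 4.64. The 8 libraries did not overlap between methods for any of these 7 families, which are taken up here for their large changes. The same held for 33 of all 51 families.

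Pro-AGG, Pro-TGG and Pro-CGG, which decode proline, changed by 5.23, 5.21 and 5.22. Mature proline tRNAs are nearly identical apart from the anticodon, and the values of these entries ran in parallel in all 8 libraries, so they are not independent measurements. Pro-AGG had 40.8, 101, 37.5 and 118 RPM in traditional-seq and 2659, 2300, 1152 and 5545 RPM in PANDORA-seq. Mouse 18 was again the highest by either method.

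**Figure D3:**
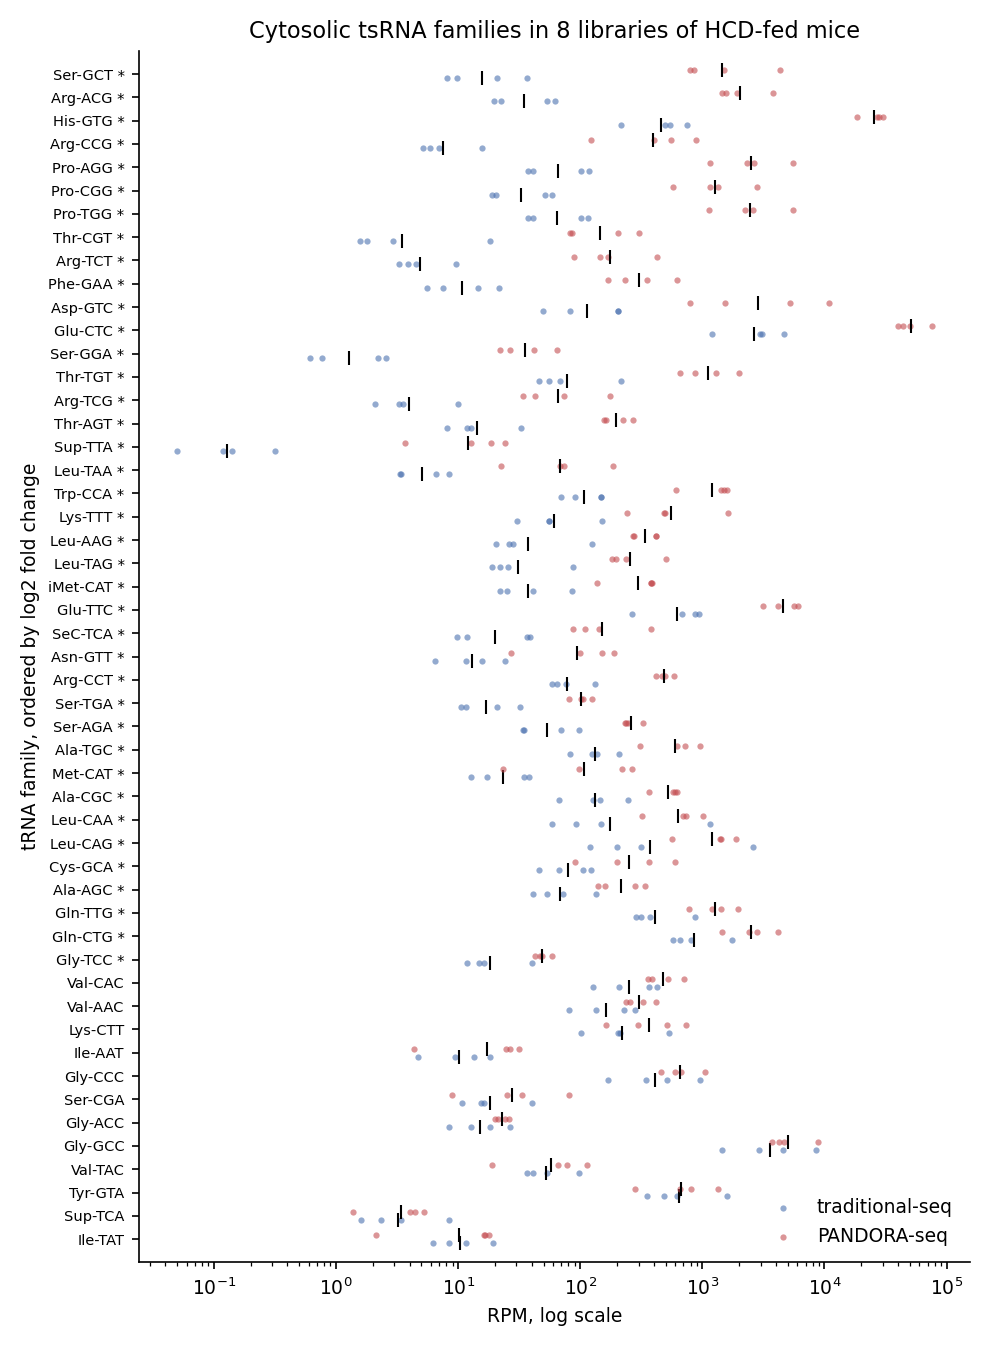
RPM (log scale) of each of 51 cytosolic tsRNA families in the 4 traditional-seq (blue) and 4 PANDORA-seq (red) libraries, ordered by log2 change, with ticks at the mean of the log values and an asterisk at the 39 families that passed. The red points of His-GTG and Glu-CTC lie farthest right, and those of Gly-GCC and Tyr-GTA lie among the blue ones.

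By known tRNA modification, the families were counted in lists that can share members. Of the 9 families whose tRNAs carry 3-methylcytidine in the anticodon loop, a base that AlkB demethylates, 8 were higher and 1 did not pass, with a median of 3.71. All 6 leucine and proline families with 1-methylguanosine beside the anticodon, also a substrate of AlkB, were higher, with a median of 4.18. Of the 4 families with queuosine, a modified guanosine of the anticodon, 3 were higher, with a median of 3.70, and Tyr-GTA was not. For the 11 families with a long variable arm the count was 10 and the median 2.84. Over all 51 families 76.5% were called higher and the median was 2.75, so that the shares of these lists, with 4 to 11 members, lay near that of all families or above it.

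The 9 families known for 5′ fragments released by angiogenin were split. Glu-CTC, Glu-TTC, His-GTG and Asp-GTC were higher, while Gly-GCC, Gly-CCC, Lys-CTT, Val-CAC and Val-AAC did not pass, and the median of the list was 0.91. Lys-CTT had a log2 change of 0.73 (limma adjusted p = 0.218) and Val-CAC one of 0.91 (adjusted p = 0.0916). The fit blocked by mouse called 6 of the 9 higher, with Val-CAC at an adjusted p of 0.0373 and Val-AAC at 0.0429. Without PANDORA-seq of mouse 17 Lys-CTT passed (1.12), and without traditional-seq of mouse 18 Val-CAC and Val-AAC did (1.16 and 1.15). With TMM scaling all 9 were called higher, as were 47 of all 51 families, while the fit blocked by mouse called 41 of the 51 higher. By amino acid, 5 of 5 arginine, 5 of 5 leucine, 3 of 3 threonine and 3 of 3 alanine families were higher, and 1 of 4 glycine, 0 of 3 valine (2 in the fit blocked by mouse) and 0 of 2 isoleucine families. With so few members, these counts say little beside the 76.5% of all families.

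Leu-CAG and Leu-CAA were set apart by 1 library. Leu-CAG had 200, 121, 312 and 2595 RPM in traditional-seq and 1421, 1384, 561 and 1876 RPM in PANDORA-seq, so that mouse 18 alone was higher in traditional-seq. Leu-CAA showed the same pattern, with 91.9, 58.8, 149 and 1146 RPM and then 696, 737, 319 and 1004 RPM. The log2 changes were 1.68 (limma adjusted p = 0.0144) and 1.86 (adjusted p = 0.0073). Both calls were lost without the traditional-seq library of mouse 15, 16 or 17, with values of 1.38, 1.13 and 1.59 for Leu-CAG and 1.55, 1.34 and 1.78 for Leu-CAA. Without the traditional-seq library of mouse 18 the changes were 2.60 and 2.76. Reads of these families may be shared, and what set that library apart was not tested. The traditional-seq library of mouse 18 also had the lowest miR-122 level of that method.

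Gln-CTG and Gln-TTG, the glutamine families, were among the highest by both methods and changed less than the median family, by 1.56 and 1.62 (limma adjusted p = 0.00338 and 0.00299). Gln-CTG had 653, 805, 579 and 1742 RPM in traditional-seq and 2808, 2410, 1445 and 4141 RPM in PANDORA-seq. It was higher in 4 of 4 mice although the ranges overlapped.

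Of 21 mitochondrial tsRNAs tested, 6 were higher and 2 lower in RPM, with a median change of −0.09. The 6 higher calls held under each of the 5 scalings, while none was called lower with TMM, with scaling by miRNA reads or with median centring. mt-Thr-TGT, encoded on the mitochondrial genome (chromosome M of GRCm38) from 15289 to 15355, had 11.3, 24.7, 6.29 and 20.1 RPM in traditional-seq and 59.6, 62.4, 38.2 and 135 RPM in PANDORA-seq. Its groups did not overlap (log2 change 2.18, standard error 0.59, limma adjusted p = 0.00119). mt-Pro-TGG, which lies next to it on the opposite strand from 15356 to 15422, changed by 1.86 (adjusted p = 0.00371). mt-Gly-TCC, at 9391 to 9458, changed by 1.55 (adjusted p = 0.00444), and without mouse 15 by 1.34 with the call lost.

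The serine tRNA mt-Ser-GCT went the other way. It had 1758, 3331, 353 and 463 RPM in traditional-seq and 608, 373, 144 and 566 RPM in PANDORA-seq, so that it was lower in 3 mice and higher in mouse 18 (log2 change −1.42, standard error 0.59, limma adjusted p = 0.0268). It took 39.6% ± 25.0 of the mitochondrial tsRNA reads in traditional-seq and 10.9% ± 4.68 in PANDORA-seq. The call was lost without the PANDORA-seq library of mouse 17 or the traditional-seq library of mouse 15 or 16, with values of −0.97, −1.14 and −0.84, and the sign turned with scaling by miRNA reads or by the median. mt-Trp-TCA, with 37, 184, 7.49 and 11.1 RPM and then 13.7, 23.4, 0 and 7.96 RPM, had a log2 change of −1.95 (limma adjusted p = 0.0280). It lost its call without the same libraries, at −0.98, −1.82 and −1.06, and its sign turned with scaling by miRNA reads.

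Other mitochondrial calls were weak. mt-His-GTG, mt-Met-CAT and mt-Glu-TTC were higher by 1.08, 1.38 and 1.35 (limma adjusted p = 0.0477, 0.0440 and 0.0324). mt-His-GTG lost its call without any 1 of 6 libraries (0.71 to 1.17), namely PANDORA-seq of mice 15, 17 and 18 and traditional-seq of mice 15, 16 and 17. mt-Met-CAT lost it without PANDORA-seq of mouse 15, 16 or 18 or traditional-seq of mouse 15 or 17 (1.04 to 1.33), and mt-Glu-TTC without either library of mouse 15, PANDORA-seq of mouse 18 or traditional-seq of mouse 17 (1.0 to 1.26). By strand, 2 of 8 light-strand tRNAs were higher and none lower, and of 13 tested heavy-strand tRNAs 4 were higher and 2 lower.

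Among ribosomal RNAs, 5S changed most. 5S, the only nuclear rRNA made by RNA polymerase III, had 13862, 36296, 7649 and 18930 RPM in traditional-seq and 90873, 68433, 94779 and 107759 RPM in PANDORA-seq (log2 change 2.44, standard error 0.45, limma adjusted p = 9.47e-06). It took 8.30% ± 4.05 of the rsRNA reads in traditional-seq and 15.5% ± 3.30 in PANDORA-seq, with overlap. The products of RNA polymerase I changed less, namely 18S by 1.69, the 45S precursor by 1.66, 5.8S by 1.35 and 28S by 1.25 (adjusted p = 0.00105, 0.000920, 0.00399 and 0.00654). The PANDORA-seq libraries lay above the traditional-seq libraries for all 5 of these RNAs, of 8 rRNA entries, and for 46 of all 312 tested RNAs.

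28S gave most of the rsRNA reads by both methods. It had 90241, 188613, 175407 and 231221 RPM in traditional-seq and 383399, 416183, 374075 and 369142 RPM in PANDORA-seq, where it varied little between mice. Its call was lost without mouse 15 (0.97). Of the mitochondrial rRNAs, 16S changed by 1.01 (limma adjusted p = 0.0440), which 5 single libraries decided (0.85 to 0.98 without PANDORA-seq of mouse 15 or 16 or traditional-seq of mouse 15, 17 or 18). 12S gave 0.20 (adjusted p = 0.789) and 4.5S 0.69 (adjusted p = 0.235).

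RNY3, a Y RNA, a class bound by the Ro protein, had 6.04, 8.72, 2.88 and 12.8 RPM in traditional-seq and 30.8, 13.9, 20.3 and 72.8 RPM in PANDORA-seq (log2 change 1.92, limma adjusted p = 0.00501). RNY1 had 23.3, 18.8, 13.6 and 83.1 RPM and then 50.4, 28.1, 25.0 and 63.4 RPM, and did not pass (0.52, adjusted p = 0.432). The piRNA entry, a single sum, had 22257, 36475, 15169 and 25011 RPM in traditional-seq and 39281, 42222, 36000 and 43466 RPM in PANDORA-seq (0.77, adjusted p = 0.0909). It was higher in 4 of 4 mice, and without the traditional-seq library of mouse 16 it passed, at 0.98.

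All miRNA values are sums over the arms of a precursor. miR-122, the liver-specific miRNA, and miR-148a were the 2 highest miRNAs by both methods. miR-122, whose precursor lies on chromosome 18 of GRCm38 from 65248861 to 65248926, had 385384, 337833, 471040 and 150625 RPM in traditional-seq and 30284, 29874, 69554 and 30632 RPM in PANDORA-seq (log2 change −3.06, standard error 0.44, limma adjusted p = 1.62e-07). As a share of the miRNA reads it held 49.9% ± 16.9 and 46.03% ± 7.31. Since it makes up so much of the miRNA reads, scaling by them says little about it. Its change lay below the class median of −2.65 but above the median of −3.83 among miRNAs that passed a filter at 10 RPM.

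miR-148a, on chromosome 6 from 51269812 to 51269910, is known to repress the LDL receptor. It had 171665, 97992, 127503 and 218721 RPM in traditional-seq and 20284, 45575, 54514 and 19563 RPM in PANDORA-seq (log2 change −2.22, limma adjusted p = 2.92e-05). It had 23.7% ± 9.92 of the miRNA reads in traditional-seq and 39.4% ± 10.3 in PANDORA-seq, and the sign turned with scaling by miRNA reads (0.78, adjusted p = 0.146), a total of which it is itself a large share. Mouse 18 differed here too, being the highest in traditional-seq and the lowest in PANDORA-seq. Together these 2 miRNAs took 64.6% to 81.8% of the miRNA reads in traditional-seq and 79.9% to 91.2% in PANDORA-seq.

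The deepest losses were those of the miR-26 precursors, mir-126a and mir-194-1. mir-26b, on chromosome 1 from 74394310 to 74394394, had 447, 361, 225 and 251 RPM in traditional-seq and 1.21, 1.59, 1.78 and 1.87 RPM in PANDORA-seq, a 199-fold lower mean (log2 change −6.90, standard error 0.56, limma adjusted p = 2.21e-12). Its levels in PANDORA-seq were close to what 3 reads are worth, 0.286 to 1.07 RPM. mir-26a-1, which has the same seed and lies on chromosome 9 from 119031796 to 119031885, had 2826, 1822, 1838 and 2193 RPM and then 57.1, 16.8, 10.3 and 32.1 RPM (−6.42). All 3 precursors of this family were lower under each of the 5 scalings.

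mir-126a, the endothelial miRNA hosted by Egfl7, had 3713, 2510, 2182 and 3172 RPM in traditional-seq and 33, 17.1, 13.9 and 40.3 RPM in PANDORA-seq (−6.84, limma adjusted p = 4.04e-13). mir-194-1 changed by −6.11, mir-203 by −5.99, mir-1839 by −5.99, mir-340 by −5.85 and mir-191 by −5.65. Of these, mir-1839 was at 0 in PANDORA-seq of mouse 17 and at 0.468 to 1.53 RPM in the other mice, so its fold change rests on few reads. The other miR-194 precursor, mir-194-2, fell less, by −4.19. With scaling by miRNA reads mir-194-2 changed by −1.25 and was not called (limma adjusted p = 0.0903). miR-192, which shares a seed with miR-215 and is made in hepatocytes, fell from 49253 ± 24224 to 2300 ± 650 RPM (SD, n = 4 each), by −4.35.

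mir-21a, induced in liver injury and fibrosis, held the fourth place by mean share of the miRNA reads in both methods. It had 44998, 25442, 15066 and 21394 RPM in traditional-seq and 868, 331, 176 and 900 RPM in PANDORA-seq (log2 change −5.73, limma adjusted p = 1.44e-11). It made up 4.02% ± 1.56 of the miRNA reads by the first and 0.839% ± 0.678 by the second. mir-143, of smooth muscle and stellate cells, changed by −3.63 and mir-30a by −4.22, and both lost their call with scaling by miRNA reads (−0.63 and −1.22).

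**Figure D4:**
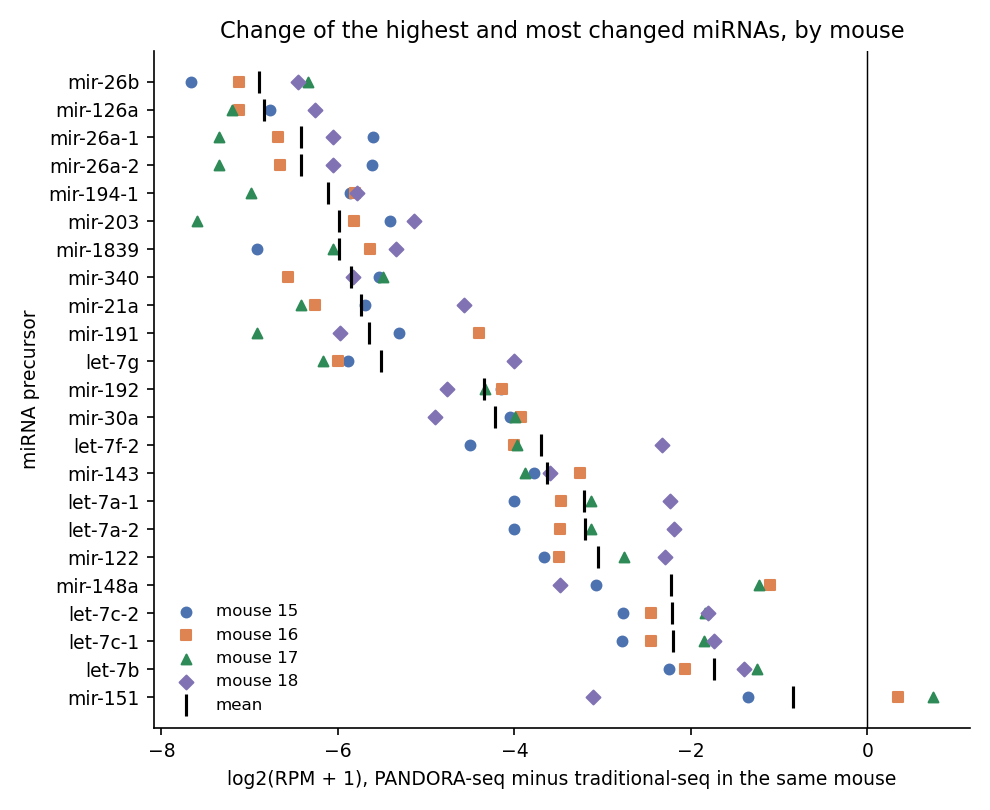
Change of log2(RPM + 1) from traditional-seq to PANDORA-seq within each of the 4 HCD-fed mice (symbols) and their mean (ticks) for the miRNAs that were highest by either method or changed most. mir-26b at −6.90 and mir-126a at −6.84 lie at the left, and mir-151, at −0.85, is the only one with symbols to the right of 0.

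Members of the let-7 family, which share a seed, fell unequally. let-7g had 7363, 5328, 4102 and 2345 RPM in traditional-seq and 123, 82.5, 56.0 and 145 RPM in PANDORA-seq (log2 change −5.51). let-7a-1 changed by −3.21, let-7c-2 by −2.21 and let-7b by −1.74 (limma adjusted p = 0.00173 for let-7b). let-7b had 1858, 1115, 2097 and 785 RPM and then 389, 265, 877 and 298 RPM. All 11 precursors in the list of this family were lower, and with scaling by miRNA reads 1 was, while the signs of let-7b, let-7c-1, let-7c-2 and let-7d turned. let-7a-2, let-7j and let-7k were tested but were not in that list. The sign of let-7k turned too with that scaling, from −1.49 to 1.40. The mature strands of let-7g and let-7b differ only outside the seed.

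Other seed families were counted in the same way, beside 83.0% of all tested miRNAs that were lower. All 3 members of the miR-26 family, all 4 of the miR-29 family, both of the miR-27 family and both of the miR-24 family were lower, with medians of −6.42, −4.66, −4.97 and −4.87, and each of these families was also lower throughout with scaling by miRNA reads. Of all 229 tested miRNAs 78 were lower with that scaling. The miR-23 family, with 1 tested member, and the miR-200b family, with 3, were also lower throughout both in RPM and with it. The remaining families that were lower throughout in RPM were lower with scaling by miRNA reads only in part or not at all. Among them were the miR-30 family, with 1 of the 4 tested members in its list lower, and the miR-125 family, with 0 of 4. mir-30b and mir-30d were tested but were not in the miR-30 list. With scaling by miRNA reads mir-30d was called lower (−1.75) and mir-30b was not called (−0.71). The miR-10 family was lower in RPM, with a median of −2.62. It had a median of 0.38 and no call with scaling by miRNA reads. Of the markers of other liver cells, 5 of 5 stellate cell and fibroblast precursors were lower (median −4.67), and so were 5 of 5 of biliary cells (−3.70) and 3 of 3 tested of immune cells (−2.25). With scaling by miRNA reads 3, 4 and 1 of them were lower, beside the 78 of all 229 tested miRNAs. Erythroid mir-486a and the muscle miRNA mir-1a did not pass, and the summed muscle markers reached at most 13.3 RPM in traditional-seq and 12.5 RPM in PANDORA-seq.

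A few miRNAs did not pass or were higher. mir-151 had 1094, 498, 747 and 1605 RPM in traditional-seq and 427, 632, 1248 and 184 RPM in PANDORA-seq (−0.85, limma adjusted p = 0.141). It was higher in 2 mice and lower in 2, and without the PANDORA-seq library of mouse 17 it passed at −1.29. mir-423 gave −1.06 (adjusted p = 0.0835) and passed in the fit blocked by mouse, at an adjusted p of 0.0177, without PANDORA-seq of mouse 17 (−1.41) and without traditional-seq of mouse 16 (−1.50). Relative to miRNA reads both were higher in PANDORA-seq, by 2.15 and 1.93 (adjusted p = 0.00405 and 0.0184).

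The 5 entries that were higher in RPM were rare, and they are named here after their values were seen. mir-692-2 and mir-692-3 hold the same values, 1.32, 3.24, 0.589 and 0.912 RPM in traditional-seq and 19.97, 19.5, 11.9 and 8.43 RPM in PANDORA-seq, and count as 1 measurement (log2 change 2.69, limma adjusted p = 1.33e-05). mir-690 had 7.23, 12.9, 3.64 and 11.2 RPM and then 131, 90.3, 5.35 and 56.2 RPM (2.35, adjusted p = 0.00304), and lost its call without mouse 15 (1.80). mir-2137 changed by 2.20 (adjusted p = 0.000743). mir-466q changed by 0.98 (adjusted p = 0.0265) and lost its call without PANDORA-seq of mouse 16, traditional-seq of mouse 15 or traditional-seq of mouse 18 (0.52, 0.86 and 0.84). Whether reads of longer RNAs with like sequence are counted in these entries was not tested.

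Base composition was looked at after the changes were known. For 158 tested miRNAs with a 5p mature strand in RefSeq, the GC content of that strand and the log2 change had a Pearson r of 0.44 and a Spearman rho of 0.39. Within mice 15, 16, 17 and 18 the Pearson r was 0.47, 0.47, 0.44 and 0.22. The 21 miRNAs with less than 40% GC had a median change of −3.70, the 105 between 40% and 55% one of −3.0, and the 32 from 55% up one of −1.37. For the 3p strands of 164 miRNAs r was 0.25, and the medians of the same 3 bins were −2.68, −3.11 and −2.30, so that the lowest bin did not fall most there. The points share their libraries and depth, rarer miRNAs had smaller changes on this scale (r of −0.42 between mean level and change), and among the 55 miRNAs with at least 100 RPM by either method r was 0.30. These are descriptions across miRNAs, which are not independent replicates. Each change is that of a sum over the arms of a precursor, so the strand taken need not be the one that gave the reads.

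**Figure D5:**
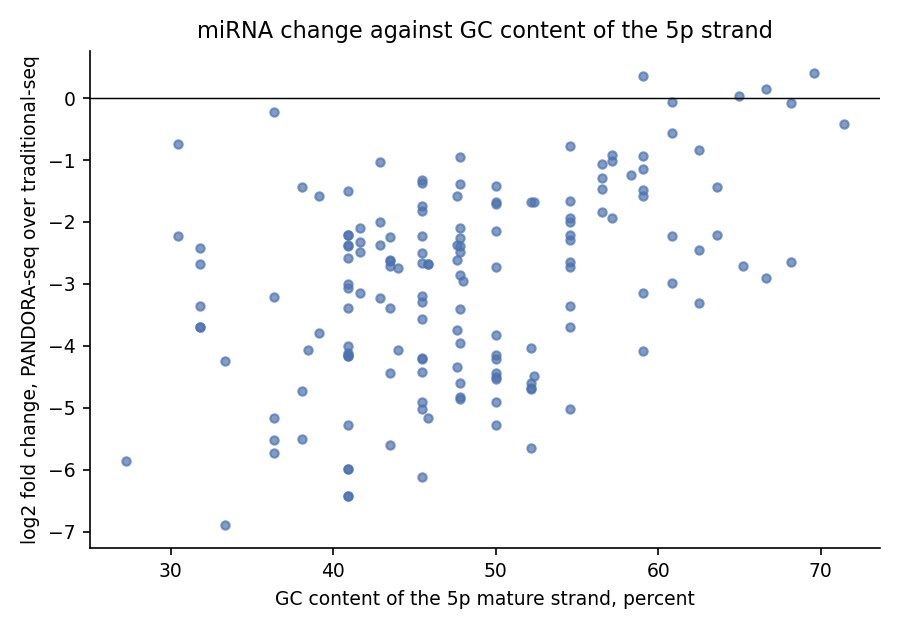
log2 change between the methods (y axis) against the GC content of the 5p mature strand in percent (x axis) for 158 miRNAs, 1 point each. The median change is −3.70 below 40% GC and −1.37 from 55% up, with wide scatter at every GC content.

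The method effect of the HCD-fed mice was set against that of 5 LCD-fed mice in 1 limma fit over all 18 libraries. Of 365 RNAs tested, the effect was higher in HCD-fed mice for 43 (11.8%) and lower for 10 (2.74%), and with the mouse as a block for 66 and 16. The count depended on scaling, with 10 and 10 by TMM and 0 and 12 by miRNA reads. It also depended on single mice, with 3 and 2 without mouse 5, 15 and 5 without mouse 2, 24 and 6 without mouse 15, 23 and 3 without mouse 16, and 23 and 5 without mouse 17. tsRNA-His-GTG had the largest positive difference. It changed by 5.81 in HCD-fed and by 2.42 in LCD-fed mice, a difference of 3.39 (standard error 0.54, adjusted p = 0.000438), which was 1.72 with scaling by miRNA reads (adjusted p = 0.114). 18S changed by 1.69 and 4.52, a difference of −2.83 (adjusted p = 0.00172), and kept its call with scaling by miRNA reads (−4.49, adjusted p = 0.000257). Diet and any difference in handling between the 2 sets of libraries cannot be told apart.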

How the data were processed

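Small RNA of liver was sequenced by PANDORA-seq and traditional-seq in 4 HCD-fed mice (8 libraries); 10 libraries of LCD-fed mice entered only the comparison of diets. The authors assigned reads with SPORTS1.1 (version 1.1.0) on mm10, allowing 1 mismatch, and deposited RPM per RNA; a missing value was taken as 0. Read counts could not be recovered (68.0% to 81.5% of low values in a library were whole within 0.02 reads), so no count model was used.

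Class shares (percent of annotated reads) were set against each other in exact permutation tests (two-sided) with Benjamini-Hochberg adjustment. Single RNAs were tested by limma 3.58.1 (R 4.3.3) with a pseudocount of 1 RPM, and the difference between diets by an interaction term. Simulated data served to test the limma code. The mouse pairs come from the study's methods. Deviations from group means correlated at 0.08, 0.25, 0.43 and 0.22 within mice 15 to 18, and for 3 of 4 mice the libraries matched each other best. The members and lists were chosen with earlier results of these data known. RNAs were named by rank of level or of change within their class, with miRNAs of at least 100 RPM by either method for change; list members, and mt-His-GTG, mir-423 and the rare higher miRNAs, were named beside this rule after their values were seen. Of 229 tested miRNAs 196 matched RefSeq sequences. Apart from the paired and blocked settings, each p-value measures the spread between libraries of the same method and diet, with no term for the mouse. It covers these 4 mice, and in the comparison of diets the LCD-fed mice as well. Alternatives were other scalings, pseudocounts, filters, the mouse as a block and leaving out libraries.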

Additional observations from a re-analysis of the deposited data

Results flagged for a closer look

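Dixon's test was applied to 148 sets of 4 libraries, of which 4 stood out, while chance flags about 1 in 20. In traditional-seq, mouse 18 was high in ysRNAs, at 0.0104% of annotated reads, where the other mice had 0.00172% to 0.00310%. In PANDORA-seq, mouse 17 was high in miR-122, at 69554 RPM against 29874 to 30632, and low in mir-194-1, at 1.07 RPM against 5.11 to 5.97. In PANDORA-seq, mouse 16 was high in mir-466q, at 8.72 RPM against 1.52 to 1.85.

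The method effect differed between HCD-fed and LCD-fed mice in the limma interaction test. The largest positive differences on the log2 scale were those of His-GTG (3.39, adjusted p = 0.000438), Ala-CGC (3.23, adjusted p = 0.00172), let-7b (2.71), let-7k (2.58) and mir-1a-1 (2.53; adjusted p = 0.0180 for each of these miRNAs). The largest negative ones were those of Val-TAC (−2.89, adjusted p = 0.00945), 18S (−2.83, adjusted p = 0.00172), Met-CAT (−2.56, adjusted p = 0.0255), mt-Met-CAT (−2.30, adjusted p = 0.0307) and Trp-CCA (−2.02, adjusted p = 0.0190). None of the positive differences kept its call with scaling by miRNA reads. let-7b, let-7k and mir-1a-1 also lost theirs with TMM (limma adjusted p = 0.134, 0.119 and 0.0864) and without a filter. Val-TAC, Met-CAT, mt-Met-CAT and Trp-CCA lost theirs without a filter.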

How the results depend on the processing

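Of the values of named RNAs, 740 of 816 kept direction and call when 1 library or mouse was left out, 216 of 272 under another scaling and 382 of 405 under another pseudocount, filter or block. As shares of all reads, the class differences were −57.6 (miRNAs), 10.8 (cytosolic tsRNAs), 35.8 (rsRNAs) and 1.55 (piRNA) percentage points and lost their call. As log2 ratios to miRNA reads, mitochondrial tsRNAs (3.30) and ysRNAs (4.02) gained one. With each mouse as a pair (the replicate block), the differences of −60.4, 13.0, 45.2 and 2.14 points could not pass, at an adjusted p of 0.15 in the exact sign-flip test. RNAs higher and lower numbered 119 and 78 with scaling by miRNA reads and 115 and 105 with median centring, and 115 were lower with a filter at 10 RPM, which tests fewer RNAs. Leaving out libraries or mice gave differences of −63.3 to −55.7 (miRNAs), 11.7 to 14.1 (cytosolic tsRNAs), 41.6 to 47.9 (rsRNAs) and 1.78 to 2.57 points (piRNA), and 3 against 3 libraries cannot pass the exact test. It gave 43 to 64 RNAs higher and 181 to 195 lower.

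The difference between diets was higher for 10 RNAs with TMM scaling, 0 with scaling by miRNA reads and 2 without a filter (lower for 1). With the mouse as a block it was higher for 66 and lower for 16, and without single mice for 3 to 45 and 2 to 10. In the comparison of methods, the block added calls for Val-CAC, Val-AAC and mir-423.

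With scaling by miRNA reads the sign turned, among others, for mt-Trp-TCA (0.55), mt-Ser-GCT (1.58), mir-148a (0.78), mir-151 (2.15), let-7c-1 and let-7c-2 (both 0.79), let-7d (0.62), let-7b (1.26) and mir-423 (1.93). With median centring it turned, among others, for mt-Ser-GCT (0.42), mir-151 (0.99), let-7b (0.10) and mir-423 (0.78), and with TMM for mir-151 (0.00095). Left-out libraries moved 12S between −0.28 and 0.79 and Tyr-GTA between −0.27 and 0.50, neither of which passed. The cause of these changes was not tested. Depth limits the RNAs near 3 reads, 0.286 to 1.07 RPM in PANDORA-seq and 0.118 to 0.396 RPM in traditional-seq.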
